A study of Mus musculus with 2 samples.

Results

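Mature Ccr7 dendritic cells were examined in tumors of 2 groups of mice, and were selected on raw UMIs (molecules counted by their unique identifiers) of 10 genes. A member held at least 3 UMIs of Ccr7 and Fscn1 together, at least 5 UMIs of H2-Ab1, no UMI of Cd3d, Cd3e, Cd3g or Cd79a, and at most 4 UMIs of C1qa, C1qb and C1qc together. The rule found 135 cells among 15156, with 79 of 8770 cells in the control IgG library and 56 of 6386 cells in the Activin A antibody library. Levels of those 10 genes describe how members were chosen and are not results.

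Female C57BL/6 mice aged 6 to 8 weeks had their peritoneum abraded and received syngeneic ovarian cancer cells (p53-/-, myc, Hras) intraperitoneally. Starting the day after, an Activin A neutralizing antibody (8 mice) or control IgG (7 mice) was given intraperitoneally every day for 10 days. Tumors from the abrasion site were pooled within each group, dissociated with enzymes, depleted of erythrocytes and dead cells without selection of any cell type, and made into 1 droplet-based 3′ single-cell RNA library per group. Per the labels both groups share strain, sex, surgery and tumor line and differ in the antibody, and the study's methods state a different length of treatment. The study also gives another number of mice per group for its single-cell experiment. Which of its experiments these libraries belong to was not settled. Because each group is 1 library of pooled mice, the antibody cannot be told apart from handling, sequencing or differences between mice, and no test between groups was made. Intervals are exact, at 95%, and reflect counting error alone, so that they understate the error of genes whose UMIs come from a handful of cells. The control IgG library held 98174850 UMIs and its kept cells had a median of 5719, against 74117462 UMIs and a median of 4660 with the antibody. The libraries shared 19 kept cell barcodes (0.217% and 0.298% of their cells).

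Conventional dendritic cells take up antigen in tissues, and on maturation they lose uptake receptors, display peptides on MHC molecules and switch on CCR7, a chemokine receptor that guides them along CCL19 and CCL21 to lymph nodes. Mature cells in tumors carry T cell stimulating molecules (CD40, CD80, CD86) together with molecules that restrain T cells (PD-L1, CD200, the amino acid oxidase IL4I1), and FSCN1 bundles actin in their long processes. Activin A is a TGFβ family ligand that binds the type II receptors ACVR2A and ACVR2B and the type I receptor ACVR1B.

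The label was checked first. Clustering the members without the rule genes gave 6 groups, and in 3 of them, groups 2, 3 and 5 with 48 cells, the data went against the label. Col1a1, a fibrillar collagen chain, was found in 27 of 27 cells of group 2, 16 of 16 of group 3 and 1 of 5 of group 5. Over the 48 cells, the pan-leukocyte gene Ptprc was found in 14, Ccl22 in 1, Il4i1 in 3 and Zfp366 in 0. Their median depth was 33390.5 UMIs, and the shallowest held 16873. Group 2 (27 cells) was led by Tagln, Ccn2, Acta2, Il33, Tnc and Col5a1, group 3 (16 cells) by Krt7, Cxcl5, Krt19, Upk3b, Pkhd1l1 and Cldn3, and group 5 (5 cells) by Ccl21a, Dlk1, Spp1, Lyve1, Kcnq5, Mmrn1, Cdkn2a and Cldn5. In group 5 Ccl21a, Lyve1, Mmrn1 and Cldn5, genes known from lymphatic and vascular endothelium, each came from 1 cell, while Dlk1 and Cdkn2a were found in 4 cells and Spp1 in 5. Of the rule genes, given only as a description, Fscn1 was found in 47 of the 48 cells and Ccr7 in 3, all of group 5. These 48 cells receive no cell type name. One of them, in group 5, held 12 UMIs of Ccr7, 7 of Il4i1 and 2 of Ccl22.

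The remaining groups 0, 1 and 4, with 87 cells, are called dendritic members. Ptprc was present in 79, Il4i1 in 72, Zfp366 in 66, Ccl22 in 46 and Col1a1 in 3. Of the 282 other conventional dendritic cells, 278 held Ptprc, 123 Zfp366, 51 Il4i1 and 14 Ccl22, so that Ptprc and Zfp366 do not set mature cells apart. In group 0 Il4i1 was found in 26 and Ccl22 in 18 of 38 cells, and in groups 1 and 4 in 46 and 28 of 49. Of the rule genes, Ccr7 was found in all 87 and Fscn1 in 47, which describes the choice of cells. Their median depth was 8721 UMIs, with a range of 3510 to 16691. The 6 fibroblast markers summed to 27.4 CPM (UMIs of a gene over all UMIs of the same cells, times 1000000) in the dendritic members, to 17148 CPM in the members of groups 2, 3 and 5 and to 1281 CPM in free RNA, taken from barcodes with under 100 UMIs. In dendritic members Col3a1 was the most abundant of them, at 10.4 CPM, and Pdgfra and Lum were at 0 UMIs. The 8 cancer and mesothelial markers summed to 35.2 CPM against 1234 CPM, and the 11 T cell genes to 32.6 CPM with Cd3d, Cd3e and Cd3g at 0 by the rule. Macrophage markers summed to 60.0 CPM in dendritic members, with Adgre1, Pf4 and Ms4a7 at 0 UMIs, and to 501 CPM in the other conventional dendritic cells. Natural killer cell genes summed to 26.7 and 450 CPM in the 2 libraries, most of it Gzma, of which 95.8% of the UMIs came from 1 cell of the antibody library. From 14 and 8 UMIs of T cell genes, free RNA was estimated at 3.12% and 2.39% of the UMIs of dendritic members, an estimate that is low by selection, since the rule left out every cell with a UMI of Cd3d, Cd3e or Cd3g. The split into dendritic members and groups 2, 3 and 5 was made after the leading genes had been seen. A group was set apart where its fibroblast, cancer and mesothelial, and endothelial and mast cell markers summed to more CPM than its pan-dendritic markers. The low sums of fibroblast, cancer and mesothelial markers in dendritic members, Col1a1 included, therefore follow from the split and are no check of it.

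**Figure D1:**
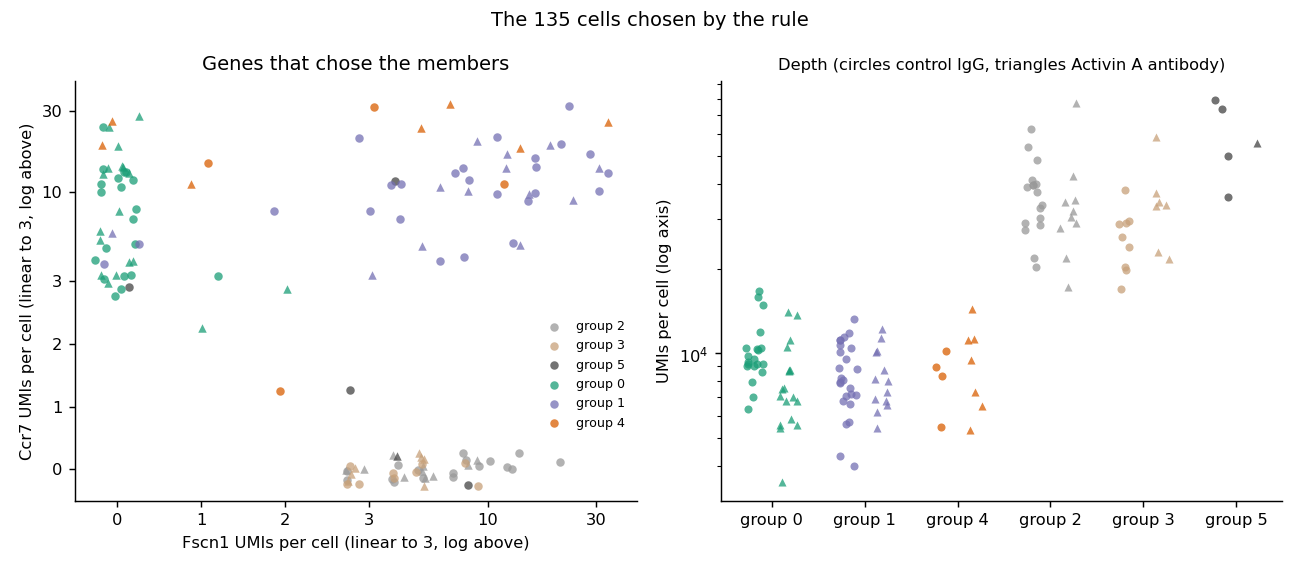
The left panel plots Ccr7 against Fscn1 UMIs for each of the 135 cells (axes linear to 3 and logarithmic above, points slightly displaced so that they do not overlap), and the right panel plots UMIs per cell on a log axis by group, circles for control IgG and triangles for the Activin A antibody. All but 3 cells of groups 2, 3 and 5 lie along the bottom with no Ccr7 UMI, and these groups hold at least 16873 UMIs per cell, while group 0 lies along the left with little or no Fscn1.

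Just inside the Ccr7 and Fscn1 threshold, the cells were of both kinds. Of the 21 cells with exactly 3 UMIs, 10 were dendritic members, with 1 Col1a1 UMI among them, and 11 belonged to groups 2, 3 and 5, with 2046 CPM of Col1a1. The 21 cells together held 14.0 CPM of Ccl22, and the 20 cells with 2 UMIs that met the other conditions held 4151 CPM of Col1a1 and no Ccl22 UMI. At the H2-Ab1 threshold, the 4 cells with 5 UMIs held 1737 CPM of Col1a1 and the 8 cells with 4 UMIs held 4136 CPM. A single UMI of the Cd3 genes removed 28 cells with a Ccl22 level of 82.5 CPM, beside 107 CPM in the members. Those 28 held 4032 CPM of Col1a1 at a median depth of 25977.5 UMIs, against 2649 CPM and 10470 UMIs in the members.

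As a share of all kept cells, members made up 0.901% (0.714% to 1.12%) with control IgG and 0.877% (0.663% to 1.14%) with the antibody, and the log2 ratio was -0.04 (-0.56 to 0.47). Dendritic members were 49 cells (0.559%) and 38 cells (0.595%), with a log2 ratio of 0.09 (-0.56 to 0.73), and members of groups 2, 3 and 5 were 30 cells (0.342%) and 18 cells (0.282%), with a ratio of -0.28 (-1.21 to 0.61). At least 3 UMIs of other lineages were found in 21 of the 49 and 7 of the 38 dendritic members and in all cells of groups 2, 3 and 5, and without these cells the log2 ratio of the members' share was 0.60 (-0.18 to 1.40). Counted among cells with at least 5 H2-Ab1 UMIs, dendritic members were 2.08% (1.54% to 2.74%) of 2357 cells and 4.41% (3.14% to 6.01%) of 861 cells, a log2 ratio of 1.09 (0.44 to 1.73). That denominator holds the macrophages, defined here by at least 10 C1q UMIs, which numbered 889 of those 2357 cells with control IgG and 209 of those 861 cells with the antibody. The other conventional dendritic cells, defined by Flt3, Cd209a, Xcr1 or Clec9a without Ccr7 and Fscn1, numbered 158 (1.80%) and 124 (1.94%) of all kept cells and had a similar ratio in that denominator, 1.10 (0.75 to 1.45). With every cell thinned to 2000 UMIs, the rule kept 65 of 8550 cells and 45 of 6133 cells, of which 42 and 36 were dendritic members.

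**Figure D2:**
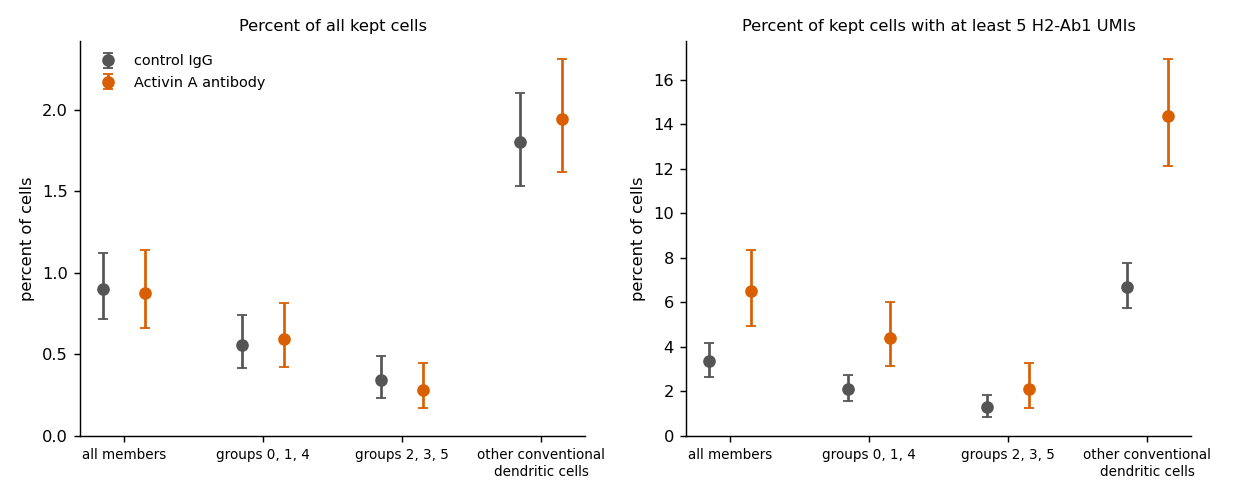
Points are the percent of all kept cells (left) and of kept cells with at least 5 H2-Ab1 UMIs (right) in all members, groups 0, 1 and 4, groups 2, 3 and 5 and the other conventional dendritic cells, gray for control IgG and orange for the Activin A antibody, with exact 95% intervals for counting error. On the left the intervals of the libraries overlap for each of the 4 classes plotted, and on the right dendritic members stand at 2.08% and 4.41%.

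The dendritic members fell into 3 groups, which are described by their leading genes and by the listed genes. Leading genes are those with the largest fold over all other members pooled, and for groups 0, 1 and 4 most UMIs of those other members came from groups 2, 3 and 5. Levels below are CPM over both libraries unless the libraries are named, they are not divided by gene length, and they are compared between cells and not between genes. Group 1 (25 cells with control IgG, 13 with the antibody) was led by Bcl2l14, Epsti1, 4933406J09Rik, Plxnc1, Slc4a8, Il12b, Nostrin and Tmem150c. It held Fscn1 in 35 of 38 cells, and Il12b, the shared chain of interleukins 12 and 23, in 7 cells. Il12b stood at 138 CPM in group 1, but 86.5% of its control UMIs lay in 1 cell, without which the control level was 24.6 CPM. It was at 0 UMIs in groups 0 and 4, and at 5.36 CPM in the control and 0 UMIs in the antibody library among the other conventional dendritic cells.

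Group 4 (4 and 7 cells) was led by Ccl4, 1700010K24Rik, Isg15, Tnf, AW011738, Ifih1, Ppp1r15a and Ifit1, of which 1700010K24Rik was found in 2 of the 11 cells. Isg15, a ubiquitin-like interferon product, stood at 4716 CPM in group 4, at 426 in group 1, at 1291 in group 0 and at 222 in the other conventional dendritic cells. Ifit1, which binds foreign RNA, stood at 630 CPM in group 4, 15.7 in group 1, 206 in group 0 and 24.2 in those cells. Cxcl10, a chemokine for CXCR3-bearing T cells, stood at 2226, 135, 779 and 106 CPM in the same classes. Group 4 was highest and group 0 second for all 3 genes. All 11 cells of group 4 held a UMI of Isg15, Ifit1, Ccl4 and Ifih1, but 49.9% of the Isg15 UMIs of the antibody library in group 4 lay in 1 cell. With control IgG, Isg15 stood at 3003 CPM in group 4, 288 in group 1 and 1224 in group 0, and with the antibody at 5579 (3583 without that cell), 695 and 1387 CPM, and group 1 was lowest of the 3 in each library.

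Group 0 (20 and 18 cells) was led by Mgl2, Gzma, Ifitm1, Cfp, Plbd1, Il1b, Arhgap15 and Ms4a4c. Cacnb3 was found in 7 of its 38 cells. Of 13 genes of a maturation list, 2 were 4-fold or more higher there than in the other conventional dendritic cells. The share of all genes was 0.612%, with a filter on the UMIs of both classes together. Of 15 maturation genes that passed that filter, 12 were above 0 and 1 below 0 in each library, beside 21.9% and 45.75% of all genes compared. Their median log2 ratio was 0.59. In groups 1 and 4, 8 of the 13 were 4-fold or more higher, beside 2.65% of all genes with that same filter. The clustering left out only the rule genes, so maturation genes could themselves have set these groups apart. Group 0 is not called mature, and whether it differs from groups 1 and 4 in maturation was not tested. Of the rule genes, Ccr7 was present in every cell and Fscn1 in 3 of 38, and the rule requires 3 Ccr7 UMIs of a cell without Fscn1. Il1b, the precursor of interleukin 1β, was found in 37 of the 38 cells at 2662 CPM with control IgG and 2157 with the antibody. In groups 1 and 4 together Il1b stood at 160 and 1252 CPM, and in the other conventional dendritic cells at 526 and 899. Mgl2 and Clec10a, lectins of type 2 conventional dendritic cells, stood at 438 and 109 CPM in group 0 and at 372 and 333 CPM in the other conventional dendritic cells, while in group 1 Mgl2 was at 25.1 CPM and Clec10a at 0 UMIs. Of 8 type 2 genes compared in group 0 against those cells, 1 was above 0 and 5 below 0 in each library, beside 21.9% and 45.75% of all genes compared, and Ccl6, Cd209a and Cd209d were 4-fold or more lower, beside 1.1%. Of 9 type 1 genes, 8 were below 0 in group 0 and Cadm1 and Clec9a were 4-fold or more lower. In groups 1 and 4, 6 of 9 type 2 and 4 of 9 type 1 genes were 4-fold or more lower, beside 4.41%. Nothing is read from these counts, since Cd209a, Xcr1 and Clec9a helped to define the comparison cells, and no type 2 gene held 50 UMIs in groups 1 and 4 themselves. Flt3, the growth factor receptor of conventional dendritic cells, which helped to define the comparison cells, stood at 363 CPM in group 1, 244 in group 4 and 71.6 in group 0. No type 1 or type 2 origin was assigned. Xcr1 was found in 3 dendritic members, Clec9a in 5 and Cd209a in 5.

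**Figure D3:**
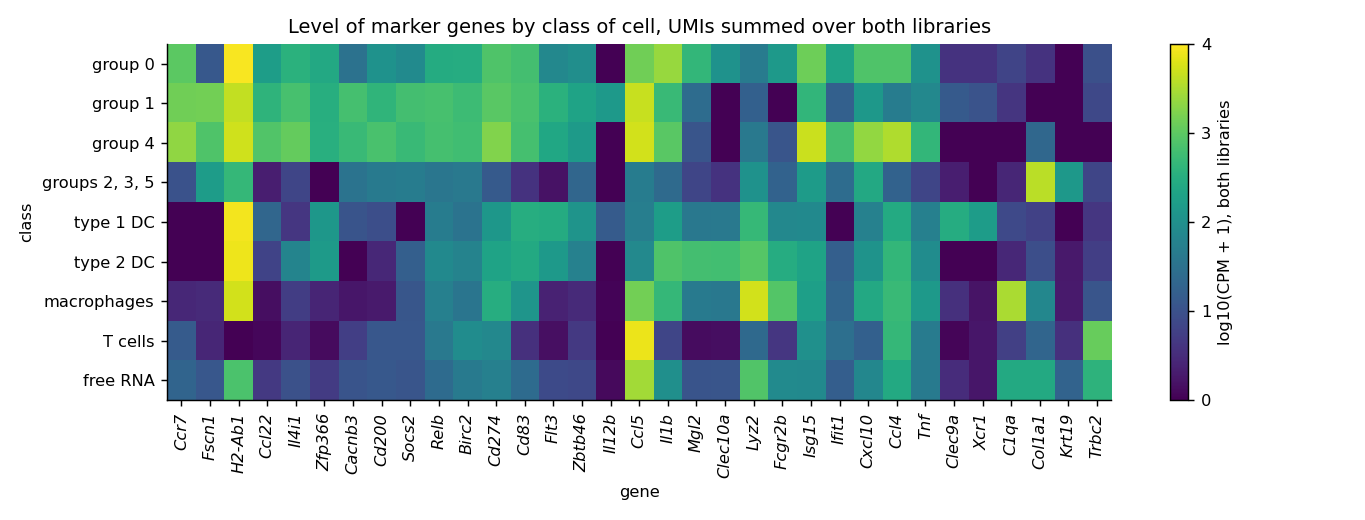
Color gives log10(CPM + 1) over both libraries for each gene (columns) in each class (rows), to be read down a column since levels are not divided by gene length, and DC stands for conventional dendritic cells other than members. Cacnb3 and Socs2 are higher in groups 1 and 4 than in group 0, and Mgl2 is higher in group 0 than in groups 1 and 4. Col1a1, one of the markers that set groups 2, 3 and 5 apart, is highest in the row that pools them.

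Isg15, Ifit1 and Cxcl10, which were high in group 4, carry matches to a factor's motif just upstream of their start, and the windows are printed to show where they lie. The interferon response element was searched as GAAA, any 2 bases and GAAA again, and the κB consensus, the binding motif of NF-κB, by its usual 10-base definition, on both strands of the 250 bases before each gene's start (RefSeq, GRCm38.p6). The interferon motif was found upstream of 9 of 14 interferon-stimulated genes with a window, 3 of 22 maturation genes and 3.46% of all 27025 genes. The κB motif was found upstream of 6 of 16 NF-κB genes (Nfkb2, Rel, Nfkbia, Nfkbie, Tnfaip3, Bcl2l1), 5 of 14 interferon-stimulated genes, 1 of 22 maturation genes and 4.46% of all genes. Capitals mark matches on either strand, overlapping matches run together, and each window is written 5′ to 3′ on the gene's strand. Isg15 (chr4:156200819-156201068, minus strand) holds 3 overlapping interferon matches, Ifit1 (chr19:34640639-34640888, plus strand) holds 2, and Cxcl10 (chr5:92348890-92349139, minus strand) holds 1 interferon match followed by 2 κB matches.
Isg15: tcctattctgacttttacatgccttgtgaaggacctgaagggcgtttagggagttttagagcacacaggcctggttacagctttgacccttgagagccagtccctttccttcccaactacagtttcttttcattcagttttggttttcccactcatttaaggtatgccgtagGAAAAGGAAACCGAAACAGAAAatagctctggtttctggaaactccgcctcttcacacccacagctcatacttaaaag
Ifit1: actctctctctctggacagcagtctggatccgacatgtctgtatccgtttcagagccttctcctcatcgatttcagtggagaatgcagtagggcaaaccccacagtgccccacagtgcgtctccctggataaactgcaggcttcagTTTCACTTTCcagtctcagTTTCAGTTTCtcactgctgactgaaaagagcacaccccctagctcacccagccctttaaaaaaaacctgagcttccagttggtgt
Cxcl10: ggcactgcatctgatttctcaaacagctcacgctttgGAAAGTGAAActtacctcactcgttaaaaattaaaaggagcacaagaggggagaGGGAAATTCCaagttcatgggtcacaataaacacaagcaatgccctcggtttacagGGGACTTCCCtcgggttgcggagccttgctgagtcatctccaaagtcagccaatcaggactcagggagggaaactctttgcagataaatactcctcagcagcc
A match describes these letters and is not evidence that a factor was bound in these cells.

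Against the other conventional dendritic cells, 8 of 13 genes of a maturation list were 4-fold or more higher in groups 1 and 4, and 2 of the 13 in group 0. Genes were compared where members and comparison cells held at least 50 UMIs together, and are counted where their CPM differed 4-fold or more the same way in each library. A gene could pass this filter through the class where it was high. In groups 1 and 4 and in group 0, none of the listed genes counted as lower held 50 UMIs in those groups themselves. In groups 1 and 4, 176 of 6638 genes were higher (2.65%) and 293 lower (4.41%), and in group 0, 40 of 6531 were higher (0.612%) and 72 lower (1.1%). The higher genes include the rule genes Ccr7 and Fscn1. Over all dendritic members 2.06% of 6884 genes were higher and 2.45% lower. Over all 135 members 7.7% of 8827 genes were higher and 3.39% lower, and the 20 genes that ranked highest there were found in 26.8% to 39.2% of the members of a library, among them Col1a2, Serping1, Timp3, Dcn and Col1a1. The comparison below therefore uses the dendritic groups. Rule genes are left out of the ranking, and the comparison cells were chosen for the absence of Ccr7 and Fscn1.

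Cacnb3, a calcium channel β subunit known as a marker of mature dendritic cells, ranked highest. It stood at 622 CPM in groups 1 and 4 and 2.01 CPM (3 UMIs) in the other conventional dendritic cells with control IgG, and at 640 and 2.60 CPM (3 UMIs) with the antibody, log2 ratios of 8.27 (6.70 to 10.6) and 7.94 (6.36 to 10.2). It was present in 27 of 29 cells and 19 of 20 cells. Cd200, a ligand that restrains myeloid cells, stood at 462 and 531 CPM against 3.35 and 6.93, log2 ratios of 7.11 and 6.26. Socs2, a feedback inhibitor of cytokine receptors, stood at 642 and 548 CPM against 5.36 and 9.53, with ratios of 6.91 and 5.85. Il2ra, the α chain of the interleukin 2 receptor, had ratios of 7.74 and 6.19, from 1 and 2 UMIs in the comparison cells. Tnfrsf4, the costimulatory receptor OX40, stood at 139 and 208 CPM and had no UMI in the comparison cells of either library, log2 ratios of at least 6.11 and 6.32 against a floor of 3 counts per library.

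Among the next genes in the ranking were Mreg (log2 ratios of 6.12 and 6.45), Adcy6 (6.04 and 7.86, from 4 and 1 UMIs in the comparison cells), an adenylyl cyclase, Adgrg6 (6.39 and 5.71), an adhesion receptor, Tmcc3 (5.32 and 6.70) and Slc44a5 (6.04 and 5.39). Ccl22, a ligand of CCR4, which regulatory T cells carry, stood at 421 and 606 CPM against 10.7 and 7.80, ratios of 5.30 and 6.28. The remaining genes of the 20 were Nudt17, Tmem150c, Slc22a23, Gm16685, Mir155hg, which is the host transcript of miR-155, Cd1d1, which presents lipids, H2-Eb2, Zmynd15 and Adora2a, an adenosine receptor. At the other end stood Lyz2, the lysozyme of myeloid cells, with 32.7 and 5.77 CPM (1 UMI) against 1242 and 679, log2 ratios of -5.25 (-6.46 to -4.27) and -6.88 (-12.2 to -4.40). Il1r2, a decoy receptor of interleukin 1, had ratios of -5.18 and -5.50, each from 1 UMI, and Tgfbi, a matrix protein induced by TGFβ, -4.22 and -4.98, from 6 and 2 UMIs. Clec10a, at 0 UMIs in groups 1 and 4, stood at 342 and 322 CPM in the comparison cells. Iqgap2, Pid1, Ifi203, Tmem189, Ckb and Cd209a, the last of which helped to define the comparison cells, completed the 10 lowest.

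**Figure D4:**
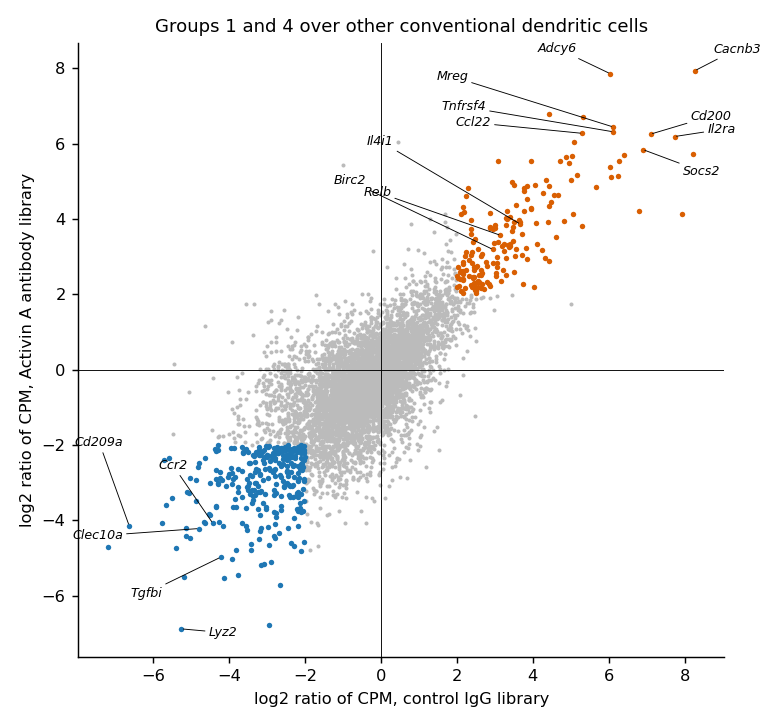
Each point is 1 of the genes tested, with the log2 ratio of CPM in groups 1 and 4 over other conventional dendritic cells in the control IgG library (horizontal) and the antibody library (vertical), and rule genes are left out. Orange and blue points are 4-fold or more higher or lower in each library, and where a class had no UMI the ratio is plotted against a floor of 3 counts. Cacnb3 lies at 8.27 and 7.94 and Lyz2 at -5.25 and -6.88.

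The genes known to rise on maturation formed a list of 25, of which 22 could be compared in groups 1 and 4. In these groups 17 of the 22 were 4-fold or more higher (16 without the richest cell of each gene, Tbc1d4 being lost), but 9 of the 22 reached 50 UMIs only with the UMIs of groups 1 and 4 added, so that the filter itself favored genes high there. Of the 13 that reached it in the comparison cells alone, 8 were 4-fold or more higher in groups 1 and 4 and 2 in group 0. The shares of all genes, with the filter on both classes together, were 2.65% and 0.612%. Medians over a list use, for each gene, the ratio nearer 0 of the 2 libraries, 0 where the libraries differed in sign, and the 3-count floor where a class had no UMI. The 2 in group 0 were Rogdi and, only with its richest cell included, Samsn1. Serpinb6b, a protease inhibitor, stood at 495 and 340 CPM in groups 1 and 4 of the control IgG and antibody libraries, at 9.75 and 41.6 in group 0, and at 24.1 and 10.4 in the other conventional dendritic cells. Samsn1, an adaptor of lymphoid and myeloid cells, stood at 1207 and 1200 CPM in groups 1 and 4, at 507 and 714 in group 0 and at 114 and 119 in those cells. Group 0 lay between the other classes for Samsn1 in each library, and for Serpinb6b below the comparison cells with control IgG and above them with the antibody.

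Group 0 shared some of these genes with groups 1 and 4. Cd200 stood at 68.3 and 166 CPM in group 0, Mreg at 141 and 388 and Adgrg6 at 87.8 and 229, with log2 ratios of 4.35 and 4.59, 4.26 and 5.64, and 4.03 and 5.24. Ccl22 stood at 107 and 250 CPM, log2 ratios of 3.32 and 5.0, and in the control library 72.7% of its UMIs lay in 1 cell. Rsad2, the antiviral protein viperin, stood at 317 and 229 CPM against 26.8 and 12.1 in the comparison cells, ratios of 3.57 and 4.24. In each library 1 cell held 50.8% and 81.8% of these Rsad2 UMIs, and without that cell the ratio with the antibody was 1.89. Oasl1, Ifit1 and Isg15, further interferon-stimulated genes, had ratios of 2.46 to 3.65, and 1 cell held 67.9% of the Oasl1 UMIs with the antibody. Fabp5, a fatty acid carrier, stood at 2067 and 5492 CPM against 274 and 339. The remaining genes of the 20 were Gstt1, Sema7a, Tnfrsf9, Rnf180, Il1rn, Ccl5, Ramp3, Serinc5, Mmp25, Gstt3 and Gm9895. Lyz2 (-4.82 and -3.81), Pid1 (-3.77 and -4.03), March1, a ubiquitin ligase that removes MHC class II from the surface (-3.36 and -3.81), and Ccl6 (-3.03 and -3.25) were among the 10 lowest, with Txndc16, Lrrk2, Mctp1, Sdf2l1, Itpkb and Stmn1, the last 6 with at most 2 UMIs in each library of group 0. Over the list of interferon-stimulated genes, 6 of 16 were 4-fold or more higher in group 0 (Cxcl10, Ifit1, Ifit2, Isg15, Oasl1 and Rsad2). The share over all genes was 0.612%, and the list's median log2 ratio was 1.65. In groups 1 and 4, 3 of 16 were (Cxcl10, Gbp5 and Oasl1), beside 2.65%, with a median of 0.63. With the cell richest in each gene left out of each library, 0 of the 6 stayed 4-fold or more higher in group 0, and 2 of the 3 (Gbp5 and Oasl1) in groups 1 and 4. Other listed genes that no longer passed 4-fold in group 0 were Ccl17, Ccl22, Il4i1 and Samsn1. The difference between groups was not tested.

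Of 18 NF-κB family members and targets, 16 were above 0 in each library in groups 1 and 4, where 24.65% of all genes compared were, and 17 in group 0, where 21.9% were. Their median log2 ratios were 1.18 and 1.07, beside -0.05 and 0.00 for all genes. In groups 1 and 4, 4 of them were 4-fold or more higher, beside 2.65% of all genes, and in group 0 1, beside 0.612%. Relb, the transcription factor subunit of the alternative pathway, stood at 667 and 721 CPM in groups 1 and 4, at 268 and 319 in group 0 and at 75 and 60.7 in the other conventional dendritic cells. Birc2, a ubiquitin ligase that restrains that pathway, stood at 450 and 716, at 210 and 416, and at 58.2 and 78.0 CPM. Traf1 and Bcl2a1b, which favor survival, were the others past 4-fold, Traf1 at 4-fold only with its richest cell included, and Bcl2a1b has near-identical copies that can share its reads.

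Chemokine genes went in both directions. Of 12 compared in groups 1 and 4, Ccl22, Ccl5, Cxcl16 and, only with its richest cell included, Cxcl10 were 4-fold or more higher. Ccl3, Ccl6 and Ccl9, which attract myeloid cells, were 4-fold or more lower. Over all genes compared there, 2.65% were higher and 4.41% lower. Ccl5 stood at 5338 and 3900 CPM in groups 1 and 4 and at 105 and 134 in the other conventional dendritic cells. It is also abundant in T cells, and stood at 2736 and 2787 CPM in free RNA, whose part in the members' level was not tested. Ccl17, which shares its receptor with Ccl22, was found in 7 of 49 cells of groups 1 and 4 and in 5 of 38 cells of group 0. Among chemokine receptors, Ccr1 and Ccr2, which guide cells into inflamed tissue, were 4-fold or more lower in groups 1 and 4. Ccr2 stood at 12.3 CPM with control IgG and at 0 UMIs with the antibody in groups 1 and 4, at 43.9 and 13.9 in group 0, and at 264 and 290 in the comparison cells. Ccr1 was not lower in group 0, where it stood at 156 and 215 CPM against 79.0 and 116.

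Among molecules seen by T cells, none of 9 costimulation genes passed 4-fold in either direction. In groups 1 and 4, 8 of 9 were above 0 in each library, beside 24.65% of all genes compared. Their median log2 ratio was 1.15, beside -0.05 for all genes. In group 0, 7 of 9 were above 0, beside 21.9%, and the median was 0.55, beside 0.00. Cd40 stood at 233 and 179 CPM in groups 1 and 4, at 156 and 153 in group 0 and at 73.0 and 69.3 in the comparison cells, and Cd80 at 127 and 150, at 87.8 and 62.4, and at 44.9 and 45.1. Cd86 went another way, with 340 and 537 CPM in groups 1 and 4, 873 and 610 in group 0 and 313 and 416 in the comparison cells. Of 12 immune regulation genes, Cd200, Cd274, Fas, Il4i1 and Socs2 were 4-fold or more higher in groups 1 and 4. Lgals9 and Vsir were 4-fold or more lower, each from 1 or 2 UMIs in each library. The shares of all genes were 2.65% higher and 4.41% lower. Cd274, the gene of PD-L1, stood at 1129 and 1125 CPM in groups 1 and 4, at 639 and 978 in group 0 and at 214 and 244 in the comparison cells, and was found in 85 of the 87 dendritic members. T cells also held it, in 29.4% and 28.4% of cells. Of 5 cytokine genes compared, Il12b and Il15, a survival factor of T and natural killer cells, were 4-fold or more higher in groups 1 and 4, Il12b only with its richest cell included, and none of 11 MHC class I genes was. With 50 UMIs required in the comparison cells alone, 2 of 9 immune regulation genes, 0 of 2 cytokines and 3 of 10 chemokines were 4-fold or more higher in groups 1 and 4. The share of 2.65% of all genes holds for the filter on both classes together. Ido1 was at 0 UMIs in all 3 groups, so that its level lay below the floor of 3.91 CPM over both libraries.

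Of 14 genes of antigen uptake and of sensing compared in groups 1 and 4, 7 were 4-fold or more lower. The share of all genes lower there was 4.41%, and all 14 passed the filter through the comparison cells. Only 2 of the 14 passed on the UMIs of groups 1 and 4 alone, and 0 of these were lower. On the UMIs of group 0 alone, 2 passed and 0 of these were lower. Because the filter favored genes high in the comparison cells, nothing about a loss of uptake is read from these counts. Fcgr2b, an inhibitory Fc receptor, had 1 UMI in groups 1 and 4 (4.09 CPM, with control IgG) and stood at 166 and 104 CPM in group 0 and 205 and 207 in the comparison cells. Mrc1, the mannose receptor, stood at 5.77 CPM (1 UMI) with the antibody and at 0 UMIs with control IgG, against 132 and 142 CPM. In group 0 only Fcgr3 and Lyz2 of the 14 were 4-fold or more lower, beside 1.1% of all genes, and the median was -0.31. Of 10 MHC class II genes other than the rule gene H2-Ab1, 2 were 4-fold or more lower in groups 1 and 4 and 0 in group 0. The shares of all genes lower were again 4.41% and 1.1%. The 2 were Ciita, the class II transactivator (45.0 and 34.6 against 267 and 267 CPM, with 151 and 250 in group 0), and H2-DMb1, which loads peptides (102 and 86.6 against 564 and 559 CPM). H2-Aa, the α chain of the class II molecule, stood at 8304 and 7662 CPM in groups 1 and 4 and at 7332 and 6484 in the comparison cells.

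Of 12 cell division genes, 8 passed the filter, all through the comparison cells, so that their lower values in the dendritic groups are partly set by it. Among the 8, 4 were 4-fold or more lower in groups 1 and 4, beside 4.41% of all genes compared, and 3 in group 0, beside 1.1%. Because none of the 8 passed on the UMIs of the dendritic groups alone, nothing about cell division is read from these counts. None of 12 stress genes, which can mark handling of cells, passed 4-fold in either direction in any dendritic group, and 10 of the 12 were below 0 in each library in groups 1 and 4, beside 52.4% of all genes compared. Genes of Activin and TGFβ signaling gave 1 of 15 past 4-fold in groups 1 and 4, the lower Tgfbi (6 and 2 UMIs), and 0 in group 0. Of all genes compared, 4.41% were lower in groups 1 and 4 and 1.1% in group 0, and nothing about the pathway is read from this count. The Activin type II receptor Acvr2a stood at 61.4 and 51.9 CPM in groups 1 and 4, at 97.5 and 97.1 in group 0 and at 83.0 and 74.5 in the comparison cells, in 33 of 87 dendritic members. The type I receptor Acvr1b stood at 20.5 and 17.3, at 19.5 and 20.8, and at 13.4 and 21.7 CPM. Inhba, the gene of the Activin A subunit, was found in 3 dendritic members. Tgfbr2, the type II TGFβ receptor, was at 0 UMIs in groups 1 and 4 (floors of 12.3 and 17.3 CPM) and at 35.5 and 33.8 CPM in the comparison cells. These levels rest on few UMIs per cell.

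Between the libraries, the markers of dendritic members stood at similar or somewhat higher levels with the antibody. Ccl22 stood at 278 CPM with control IgG and 444 with the antibody, a log2 ratio of 0.68 (0.32 to 1.03), and Il4i1 at 489 and 731, a ratio of 0.58 (0.31 to 0.85). Zfp366, a repressor found in dendritic cells, stood at 280 and 318 CPM, 0.18 (-0.21 to 0.57). The rule genes Ccr7 (1166 and 1512 CPM, 0.38, 0.19 to 0.56) and Fscn1 (692 and 699 CPM, 0.02, -0.24 to 0.27) are given as a description. None of the 5 markers passed 2-fold over all dendritic members. Within group 0, Ccl22 stood at 107 and 250 CPM, 1.22 (0.41 to 2.05), with 72.7% of the control and 33.3% of the antibody UMIs in 1 cell. Il4i1 stood there at 249 and 513 CPM, 1.05 (0.51 to 1.59). In groups 1 and 4 the ratios were 0.52 for Ccl22 and 0.40 for Il4i1, under 2-fold. Cells with a Ccl22 UMI made up 24 of 49 dendritic members (49.0%, 34.4% to 63.7%) with control IgG and 22 of 38 (57.9%, 40.8% to 73.7%) with the antibody, where cells had a median of 9028 and 7519.5 UMIs. Thinned to 2000 UMIs per cell, the shares expected over all draws were 23.9% and 37.7%, and thinned to 1000 UMIs 16.5% and 26.3%. Single random draws scattered widely around these, with 20.4% (10.2% to 34.3%) and 42.1% (26.3% to 59.2%) at 2000 UMIs and 28.6% (16.6% to 43.3%) and 18.4% (7.74% to 34.3%) at 1000. In T cells, which should lack the gene, 5 of 4156 (0.120%) held a Ccl22 UMI with control IgG at a median of 4677 UMIs. The genes lie in GRCm38 at chr11:99144196-99155077 (Ccr7, minus strand), chr5:142960343-142973185 (Fscn1, plus), chr8:94745590-94751699 (Ccl22, plus), chr7:44816387-44840809 (Il4i1, plus) and chr13:99184823-99250656 (Zfp366, plus).

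Of 2422 genes with at least 50 UMIs, 41 (1.69%) were at least 2-fold higher with the antibody and 45 (1.86%) at least 2-fold lower, the median log2 ratio was 0.01, and the interval lay above 0 for 241 genes and below 0 for 225. Without the 21 control and 7 antibody cells that held UMIs of other lineages, 38 genes were higher and 42 lower, of 1599 tested. Over all 135 members, 1.84% of 6526 genes were at least 2-fold higher and 2.41% lower, and those ranked furthest included Acta2 (940 and 50.9 CPM), Ccn2 and Tagln among the lower, which lead group 2, and Pkhd1l1 among the higher, which leads group 3. The median log2 ratio over these genes was -0.03.

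Among the 10 genes of dendritic members ranked furthest above 0, Ccdc162 stood at 84.5 CPM with control IgG and 416 with the antibody, a log2 ratio of 2.30 (1.77 to 2.86), in 8 of 49 and 10 of 38 cells. Ptgs2, the inducible prostaglandin synthase COX-2, stood at 35.6 and 154 CPM, 2.12 (1.28 to 3.03). Il1rn, the antagonist of the interleukin 1 receptor, stood at 127 and 416 CPM, 1.71 (1.25 to 2.19), and was found in 26 of 49 and 28 of 38 cells. Kazn, Cdc42se1, H2-Eb2, Nrp2, Ifi47, Stxbp6 and Sema7a followed, with ratios of 1.35 to 1.99. Among the 10 furthest below 0, Ckb, a creatine kinase, stood at 171 and 12.6 CPM, -3.77 (-5.68 to -2.35), and was found in 18 and 4 cells. Ccnd1, the gene of cyclin D1, stood at 129 and 18.9 CPM, -2.77 (-4.28 to -1.56), in 19 and 4 cells. Pakap, Cfp, Tox4, Flot1, Bcl2l14, Gramd3, Gatm and Adam19 had ratios of -1.92 to -1.55. Bcl2l14 leads group 1, which held 25 of the 49 dendritic members of the control IgG library and 13 of the 38 of the antibody library, and the part of this mix in the ratios was not tested.

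**Figure D5:**
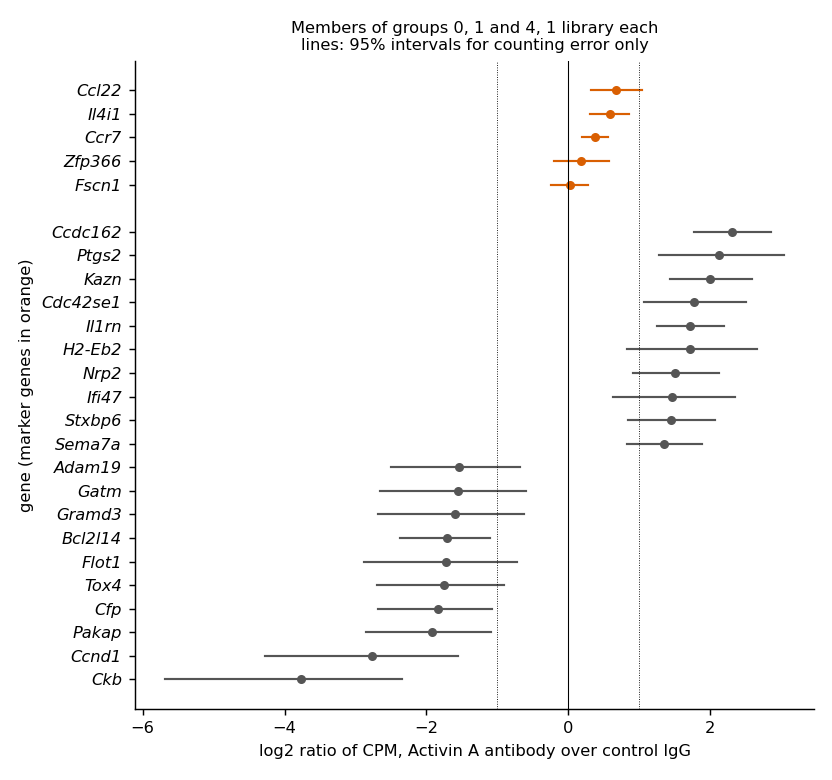
Points are log2 ratios of CPM, Activin A antibody over control IgG, in the 87 dendritic members for the 5 markers (orange) and the 20 ranked genes (gray), with 95% intervals for counting error, and dotted lines mark 2-fold. The markers lie between 0.02 and 0.68, and Ccdc162 at 2.30 and Ckb at -3.77 lie furthest out.

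Of the listed genes, none of 16 NF-κB, 7 costimulation, 11 MHC class II (the rule gene H2-Ab1 among them), 6 chemokine or 6 Activin and TGFβ genes passed 2-fold between the libraries in dendritic members. Among 15 interferon-stimulated genes only Isg15 did, at 914 and 2016 CPM, a log2 ratio of 1.14 (0.96 to 1.32). It was found in 42 of 49 and 30 of 38 cells, and 28.4% of its UMIs with the antibody lay in 1 cell, without which the ratio was 0.72 and under 2-fold. In groups 1 and 4 Isg15 stood at 655 and 2539 CPM, with 41.4% of the antibody library's UMIs in 1 cell, and the log2 ratio went from 1.96 to 1.31 without that cell, still over 2-fold. It stood in group 0 at 1224 and 1387. Group 4, the highest in Isg15, held 4 cells with control IgG and 7 with the antibody. Tbc1d4, a regulator of vesicle traffic in the maturation list, stood at 563 and 1386 CPM, 1.30 (1.07 to 1.53), and within groups 1 and 4 at 818 and 2042, within group 0 at 258 and 596, where the median count was 3 and 2 UMIs per cell. In the other conventional dendritic cells it stood at 188 and 116 CPM. The median Tbc1d4 count in groups 1 and 4 was 4 UMIs per cell with control IgG and 17 with the antibody, and no cell held over 12.5% of a library's UMIs there. Socs1, a feedback inhibitor of cytokine signaling, stood at 57.8 and 145 CPM, 1.33 (0.60 to 2.08), and Mgl2 at 269 and 129, -1.06 (-1.61 to -0.54). Without their richest cell these ratios were 0.94 and -0.65, under 2-fold, and that of Tbc1d4 was 1.23 in dendritic members and 0.92 in group 0. Gzma passed 2-fold through the single cell named above.

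Within the groups some inflammatory genes differed further, and these were chosen after their values were seen. Il1b in groups 1 and 4 stood at 160 CPM with control IgG and 1252 with the antibody, a log2 ratio of 2.97 (2.48 to 3.50), in 15 of 29 and 14 of 20 cells. The median was 1 UMI per cell with control IgG and 4 with the antibody, and the highest cells held 10 and 49. In group 0 Il1b stood at 2662 and 2157 CPM, so that the libraries stood the other way round there. Ccl5 in group 0 stood at 663 and 2392 CPM, 1.85 (1.56 to 2.15), in 15 of 20 and 16 of 18 cells, while in groups 1 and 4 it stood at 5338 and 3900. Over all dendritic members Ccl5 stood at 3205 and 3215 CPM. Ccl4 in group 0 stood at 1243 and 132 CPM, with 42.8% of the control and 73.7% of the antibody library's UMIs in 1 cell. In groups 1 and 4 it stood at 675 and 1021, a log2 ratio of 0.60 (0.28 to 0.91). There 1 cell held 42.4% and 32.2% of the UMIs, and leaving out the richest cell took the ratio to 0.13. Cxcl9 in groups 1 and 4 stood at 626 and 231 CPM, with 51.0% of the control library's UMIs in 1 cell. Without the richest cell the ratios were 2.66 for Il1b in groups 1 and 4, 1.60 for Ccl5 and -2.56 for Ccl4 in group 0, and -0.49 for Cxcl9 in groups 1 and 4.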

How the data were processed

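The authors deposited raw counts, whole UMI counts per gene and droplet barcode for 32285 mouse genes, without a filter on cells or normalization. The file header names Cell Ranger 4, while the submitters' processing notes give Cell Ranger 7.0.1 with mm10. The chemistry version differs between the labels and the study's methods. Kept cells held 1000 to 8500 genes and 1000 to 100000 UMIs, with mitochondrial UMIs at 10% or below, as in the study's methods. Doublets were not removed, and leaving out the top 5% of Scrublet scores was an alternative.

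CPM were computed from the pooled counts of each class, separately per library. The confidence level was 95%, with Poisson, Clopper-Pearson and conditional binomial intervals, and the floor was 3 counts. Members were clustered on 1000 variable genes, 15 components and 10 neighbours at Leiden resolution 0.5, seed 1 (scanpy 1.11.5, leidenalg 0.10.2, scipy 1.17.1, numpy 2.4.6, Python 3.11.15). The log2 ratio and its interval were tested on simulated Poisson counts, which lack UMIs gathered in single cells. The clustering and the split of its groups were not tested in this way.

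Named genes between the libraries were the 10 furthest in each direction among those with an interval without 0, a UMI in at least 10% of the members of 1 library and no cell over 25% of the UMIs. Against the other conventional dendritic cells they were the 20 highest and 10 lowest by the ratio nearer 0, with a UMI in at least 20% of the cells of the higher class. For groups they were the 8 leading genes by fold of CPM plus 10 over all other members pooled, and all others came from 31 lists, of which 5 listed symbols were not used. The members and lists were chosen with earlier results of these data known. Because 1 library per group allows no test, none was made.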

Additional observations from a re-analysis of the deposited data

How the results depend on the processing

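Each group is 1 pooled library, so leaving out a replicate was not possible. No paired analysis was possible because the groups share no replicate numbers beyond a single library each. Dendritic members only, at least 1 Ccr7 UMI besides the rule, leaving out the cell richest in each gene, and requiring the 50 UMIs of the comparison cells alone were alternatives chosen after seeing the data. Leaving out the richest cell ended all 6 interferon-stimulated calls of group 0. Of the main values, 48 stayed within 1.5 times or within their interval and 30 did not. Of the values of single genes and of listed genes counted past 4-fold, 538 stayed, 209 moved and 6 changed sign.

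The log2 ratio of the members' share, -0.04, was 0.60 with cells of 3 or more UMIs of other lineages left out, which removed all 48 members of groups 2, 3 and 5 and 28 dendritic members, and 0.96 among cells with at least 5 H2-Ab1 UMIs. The 680 genes higher and 299 lower than in other conventional dendritic cells over all 135 members became 142 and 169 in dendritic members only, 110 and 127 with at least 1 Ccr7 UMI, 129 and 173 without cells of other lineages' UMIs, 353 and 163 with at least 20 H2-Ab1 UMIs, and 255 and 157 among genes with at least 200 UMIs. Those higher were 133 where both Ccr7 and Fscn1 were present, and those lower 199 with the mean of CPM per cell.

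Between the libraries, the 120 genes higher and 157 lower became 41 and 45 in dendritic members only, 38 and 42 without cells of other lineages' UMIs, 18 and 21 with members thinned to 2000 UMIs, 18 and 31 among genes with at least 200 UMIs, and 594 and 750 with at least 10 UMIs. Those higher were 72 with at least 20 H2-Ab1 UMIs, and those lower were 99 with no C1q UMI, 298 with at least 1 Ccr7 UMI and 262 with the mean of CPM per cell. The number of genes tested differs between these settings.

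Acta2 changed sign, to 1.10 with both Ccr7 and Fscn1 present, 0.50 in dendritic members only and 0.0068 with at least 1 Ccr7 UMI. Cthrc1 went to 1.10 and 1.01 in the first and last of these, and Lrrn4 to -0.50 with thinned members. All of these intervals include 0. At resolution 0.3, 86 members, 38 of them dendritic members here, fell in groups set apart by the same marker counts, and at 0.8 the same 48 did. The Ccl22 share of all dendritic members, a log2 ratio of 1.04 in 1 random draw at 2000 UMIs, was -0.63 in 1 draw at 1000 UMIs. The shares expected over all draws, computed after seeing the data, kept the order of the libraries. Depth limits the genes given with under 10 UMIs, and thinned shares of 49 and 38 cells.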
